A study of Mus musculus with 8 samples.

Results

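Cyclin B, its kinase CDK1 and the enzymes that switch this kinase on and off were examined in mouse oocytes of young and old females. The genes were taken by symbol from 2 deposited tables, and 10 were sought: the cyclins Ccnb1, Ccnb2, Ccnb3 and Ccna2, the kinase Cdk1, the activating phosphatases Cdc25a, Cdc25b and Cdc25c, and the inhibitory kinases Wee2 and Pkmyt1. All 10 were found among the 10530 genes of the input (total mRNA) table. In the table of ribosome-bound mRNA, which holds 8898 genes, 9 were found, and Cdc25c was absent from it. A total of 8537 genes stood in both tables.

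All oocytes came from C57BL/6 females of genotype RiboTagF/F;Zp3-Cre, in which Cre under the Zp3 promoter, active in growing oocytes, switches on an HA-tagged ribosomal protein. Immunoprecipitation with an HA antibody (HA) therefore recovers mRNA on oocyte ribosomes, and 10% of the same lysate was kept as the input. Young females were 1 month old, and old females were retired breeders aged 12 to 15 months. Age and breeding history therefore cannot be told apart. Ovulation was induced in every female with 5 IU PMSG followed after 48 h by 10 IU hCG, and metaphase II (MII) oocytes were collected 13 h after hCG. Each age had 2 pools of 200 oocytes, and each pool gave an HA and an input library, so there were 8 libraries from 4 pools. Oocytes of several females were combined in a pool, and the study's reporting summary describes a single experiment, so the spread between pools is the only error available.

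Cyclin B binds CDK1 to form the M-phase promoting factor, the kinase that drives the oocyte into and through meiotic M phase. Cyclin B is destroyed at anaphase I and made again from stored maternal mRNA, so that CDK1 activity is high during the arrest at MII. WEE2 and PKMYT1 hold CDK1 inactive by phosphorylating it, and phosphatases of the CDC25 family remove these phosphates. Because the full-grown oocyte makes almost no new mRNA, which stored mRNAs are loaded on ribosomes largely sets which of these proteins are made.

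Several mRNAs of this group are textbook cases of control through the 3′-untranslated region (3′-UTR). There, a cytoplasmic polyadenylation element (CPE), read here as TTTTAT or TTTTAAT on the sense strand, is known to recruit the CPEB protein. The CPE acts together with the polyadenylation signal AATAAA. The stretches below (GRCm38, GENCODE M21 transcripts, 5′ to 3′ along the mRNA) show the CPE nearest to the 3′ end in the genes whose values the results turn on, with CPEs and AATAAA in capitals. Ccnb1 is read from the minus strand at chr13:100778775-100778804 (CPE) and chr13:100778656-100778685 (signal), Ccnb2 from the minus strand at chr9:70407860-70407889, Ccnb3 from the minus strand at chrX:6979702-6979731, Cdk1 from the minus strand at chr10:69336263-69336292, and Wee2 from the plus strand at chr6:40466766-40466795 and chr6:40466784-40466813, which overlap.
Ccnb1 CPE: ctcatttgctgTTTTAATttatacatctga
Ccnb1 signal: ctttatgttgctAATAAAcatagttttcga
Ccnb2 CPE: atcctgtatgtaTTTTATtctagtttacat
Ccnb3 CPE: tcttgaaattacTTTTATgaaagaagagaa
Cdk1 CPE: agtgacaaagaaTTTTATgggtggggtggg
Wee2 CPE 1: taTTTTAATccagatcattgtaAATAAAga
Wee2 CPE 2: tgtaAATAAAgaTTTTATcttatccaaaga

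In Wee2, whose annotated 3′-UTR had 850 bases, both CPEs lay within the last 100 bases and flanked the signal, and the nearer began 18 bases from the end. The single CPE of Ccnb3 began 68 bases from the end. Ccnb1 had 4 CPEs in 1028 bases, the nearest 144 bases from the end, and Ccnb2 had 1 CPE 186 bases from the end of a 3′-UTR of 227 bases. Cdk1 had 2 CPEs in 3352 bases, the nearest 1135 bases from the end. Ccna2 had 8 CPEs and Cdc25a had 6, the nearest 470 and 535 bases from the end, and the transcripts of Cdc25b, Cdc25c and Pkmyt1 held neither CPE sequence in their 3′-UTR. Among 7599 genes of both tables with an annotated 3′-UTR of at least 100 bases, 22.0% had a CPE within the last 100 bases and 69.8% had one anywhere in the 3′-UTR. The files do not show which 3′ end the oocyte used, and a match is a description of the annotated sequence only.

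The deposited values are read counts relative to library size (CPM), scaled by the authors with the TMM method in each table apart. Every value was a whole multiple of that of 1 read, so the reads could be recovered: 37817382 to 59688578 per HA library and 38276453 to 60052814 per input library. A count of 3 reads corresponded to 0.0388 to 0.111 CPM in HA and 0.0435 to 0.0788 CPM in input. These are amplified reads, so this floor covers counting error only. All 10 oocyte markers sought were in both tables, and none of 6 blood markers was in either. Of 14 cumulus and granulosa cell markers, 9 were in the input table, summing to 154.5 and 314.8 CPM in old and 198.3 and 281.7 CPM in young pools. The 4 of them in the HA table summed to 143.6 and 88.8 CPM in old and 198.8 and 206.6 CPM in young pools, and whether this bears on any value below was not tested.

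The 10 genes spanned a wide range of mRNA abundance. Per kilobase of annotated exon, input Wee2 was highest, between 272.8 and 369.9 CPM per kb over the 4 pools, and it did not overlap any other gene of the group. Ccnb2 (48.1 to 123.3), Ccnb1 (60.9 to 81.9) and Ccna2 (41.4 to 65.6 CPM per kb) followed with overlapping ranges. Ccnb3 lay between 21.01 and 31.2 CPM per kb, below these 3 in every pool, and Cdc25a between 12.4 and 15.5. The remaining genes were low and their ranges ran into each other, with Pkmyt1 at 4.46 to 6.29, Cdc25b at 1.57 to 5.32, Cdk1 at 1.07 to 2.44 and Cdc25c at 0.00816 to 2.85 CPM per kb. The mRNA of the kinase subunit was thus far below that of its B-type cyclin partners, with 26.0 to 48.6 times more CPM for Ccnb1 than for Cdk1 in the same input library (30.4 to 56.8 times per kb).

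In HA the order was similar. Wee2 (218.4 to 491.3 CPM per kb) stood above Ccnb1 (111.5 to 283.2 CPM per kb) in all 4 pools although their ranges overlapped across pools, and Ccnb1 stood above Ccnb2 (54.7 to 110.1) and Ccna2 (57.4 to 110.6 CPM per kb) without overlap. Ccnb2 and Ccna2, and likewise Ccnb3 and Cdc25a, did not differ beyond their spread. The plot of levels by pool shows all of these values on the CPM scale, in which longer genes collect more reads.

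**Figure D1:**
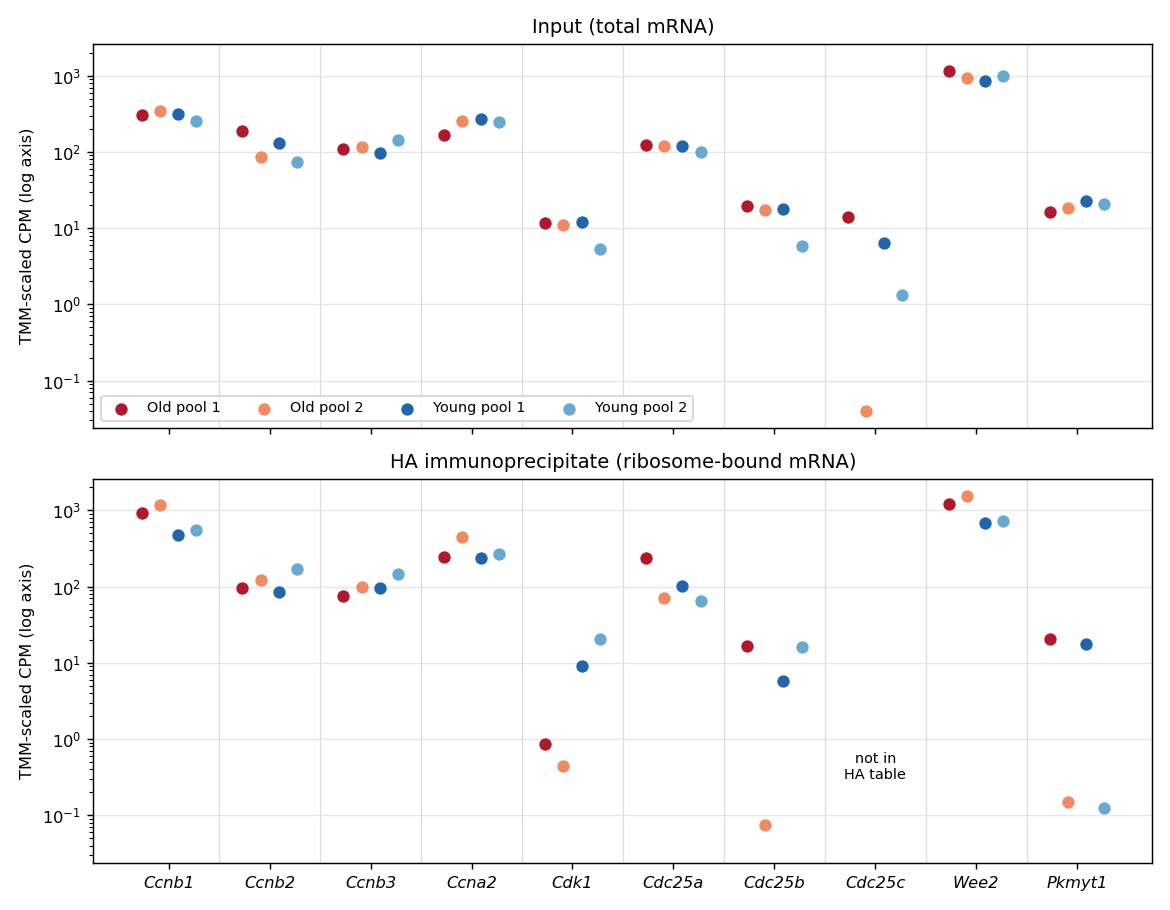
CPM of each gene (log axis) in the input libraries (top) and the HA libraries (bottom), with 1 point for each pool, old in red and orange and young in dark and light blue. The 4 pools lie close together for Ccnb1, Ccnb3, Cdc25a and Wee2 in input, the old pools lie above the young ones for Ccnb1 and Wee2 in HA, and Cdk1 in HA falls to 0.855 and 0.444 CPM in the old pools.

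The design asks how age changed the amount of each mRNA, its amount on ribosomes, and the ratio of HA to input, which the study calls translational efficiency (TE). Input differences of the group were small beside their errors. In limma on log2(CPM + 1) no gene of the 10 passed an adjusted p of 0.05, and 0 had an unadjusted p under 0.05 in either direction. In pooled oocytes, fewer oocytes that hold an mRNA and less of it in each oocyte cannot be told apart. Among all 10530 genes, 0.0095% passed the adjusted threshold, and 2.71% and 3.48% had an unadjusted p under 0.05 with a higher or a lower level in old pools. The groups separated without overlap for 1 gene of the group, Pkmyt1, with both old pools lower; over all genes such separation occurred in 18.9% in that direction and in 16.4% in the other. The median difference of the 10 genes was 0.17 log2, against -0.03 over all input genes. EdgeR's quasi-likelihood and likelihood ratio tests and DESeq2 on the recovered reads called 0, 50 and 111 of the 10530 input genes, none in the group.

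On ribosomes, 2 genes were higher in old oocytes and 1 was lower by unadjusted p, and none of the 9 passed the adjusted threshold. Ccnb1 and Wee2 were higher and Cdk1 was lower, each with no overlap between the ages. This count of 3 was 0 without young pool 1 and 1 without young pool 2. Over all 8898 HA genes, limma gave an adjusted p under 0.05 to 0%, whereas edgeR's likelihood ratio test called 295 genes, DESeq2 508 and edgeR's quasi-likelihood test 0, none of them in the group. An unadjusted p under 0.05 was found in 4.28% of HA genes with higher and in 10.5% with lower levels in old pools. Both old pools exceeded both young pools in 17.2% of HA genes and lay below both in 24.7%. For any one gene, the smallest two-sided p that exact permutation of 4 pools allows is 0.333, so each p below comes from limma's fit across all genes.

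The level of a gene moved with its abundance in HA, and this background stands beside each result. Over the 1590 genes with a mean of at least 100 CPM in both tables, the median HA difference was 0.49 log2 (old minus young) and 76.8% lay above 0, whereas the median over all HA genes was -0.14. Among the 3417 genes of both tables with a mean input below 20 CPM the median HA difference was -0.60 and both old pools were lower in 34.7%. Ccnb1, Ccnb2, Ccnb3, Ccna2, Cdc25a and Wee2 each had a mean input of at least 100 CPM, a class of 1994 genes in which both old pools were higher in HA in 35.6%. The share of these 6 with both old pools higher, 2 genes, was near that background. Cdk1, Cdc25b and Pkmyt1 were below 20 CPM.

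Ccnb1 encodes the major B-type cyclin of oocytes. Its input was 309.5 and 345.4 CPM in old pools and 312.4 and 256.7 CPM in young pools, and the ages overlapped. Its HA level was 911.5 and 1194 CPM in old pools and 470.1 and 545.2 CPM in young pools, so that both old pools lay well above both young ones. The means were 1053 ± 199.8 and 507.6 ± 53.1 CPM (SD, n = 2 each), a ratio of 2.07. In limma the HA difference was 1.04 log2 (SE 0.38, 95% interval 0.15 to 1.94, adjusted p = 0.304). The value stood at the 80.0th percentile of the 1590 abundant genes. Under other scalings it was 0.40 with libraries brought to the same sum (adjusted p = 0.640) and 0.34 with quantile normalization (adjusted p = 0.831), more than 1.5 times smaller, and 1.28 with scaling by the median ratio.

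The TE of Ccnb1 was 2.94 and 3.46 in old pools and 1.505 and 2.12 in young pools. Here too the ages did not overlap, and in each pool Ccnb1 stood between the 83.5th and 89.5th percentile of all genes by TE. The TE difference was 0.84 log2 (SE 0.55, 95% interval -0.46 to 2.13, adjusted p = 0.775), within its error. It was 0.38 with libraries brought to the same sum and 0.30 with quantile normalization, and over all alternatives the adjusted p ran from 0.300 to 0.9998. The median TE difference of the abundant genes was 0.40, with Ccnb1 at their 75.3rd percentile.

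Ccnb1 has near-identical processed copies in the genome, which could take or lend reads. Of those matching at least 95% over at least 200 bases, Gm12856 and a copy listed in the tables as Gm5593 were in both tables. Gm12856 lay at 2.40 to 12.6 CPM in HA and Gm5593 at 12.7 to 29.1 CPM. With both added to Ccnb1, the ratio of old to young means was 2.07 in HA and 1.76 for TE, the same to 3 digits as for Ccnb1 alone (2.07 and 1.76). The copies were low beside Ccnb1, so the sum could barely change these ratios. It does not show reads that were left uncounted.

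Ccnb2 encodes the second B-type cyclin of oocytes, with a role that overlaps that of cyclin B1. Its input was 188.8 and 85.7 CPM in old pools and 130.7 and 73.6 CPM in young pools, and its HA level was 94.7 and 123.8 CPM in old and 83.8 and 168.6 CPM in young pools. The pools of one age differed by as much as the ages did. The HA difference was -0.13 log2 (SE 0.63, 95% interval -1.63 to 1.36, adjusted p = 0.972). TE was 0.502 and 1.44 in old and 0.641 and 2.29 in young pools, with a difference of -0.51 log2 (SE 0.97, adjusted p = 0.931).

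Ccnb3, a cyclin needed for the onset of anaphase I in mouse oocytes, lay between 75.6 and 145.0 CPM in all 8 libraries. Its input was 108.2 and 117.2 CPM in old and 95.9 and 142.5 CPM in young pools, and its HA level was 75.6 and 98.1 CPM in old and 95.7 and 145.0 CPM in young pools. Its TE was 0.699 and 0.837 in old pools and 0.998 and 1.02 in young pools, lower in both old pools without overlap. The TE difference of -0.39 log2 (SE 0.74, 95% interval -2.13 to 1.34, adjusted p = 0.930) stayed within its error. It was -0.84 with libraries brought to the same sum, -0.79 with quantile normalization and -0.20 with scaling by the median ratio.

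Ccna2 encodes cyclin A2, which binds CDK1 and CDK2. Its input was 168.9 and 254.8 CPM in old and 268.0 and 245.3 CPM in young pools, and its HA level was 246.9 and 451.6 CPM in old and 234.3 and 267.4 CPM in young pools. Old pool 1 lay within the young range in HA, whereas old pool 2 was higher. TE was 1.46 and 1.77 in old and 0.874 and 1.09 in young pools, higher in both old pools, with a difference of 0.72 log2 (SE 0.59, 95% interval -0.67 to 2.11, adjusted p = 0.825). The TE difference was 0.27 with libraries brought to the same sum and 0.21 with quantile normalization. The HA difference was 0.41 log2 (SE 0.49, adjusted p = 0.814). Ccna2 overlaps Exosc9, which lies on the opposite strand, and since reads were counted without strand, reads of the shared part cannot be told apart.

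Ratios between genes within a library do not depend on scaling by a single factor per library. Quantile normalization can change them, and they do not remove a shift that moves with abundance. The HA level of Ccnb1 was 9.63 and 9.65 times that of Ccnb2 in old pools and 5.61 and 3.23 times in young pools, and it was 12.0 and 12.2 times that of Ccnb3 in old pools and 4.91 and 3.76 times in young pools. In both cases the old ratios agreed closely with each other and lay above both young ratios. By HA difference among the 1590 abundant genes, Ccnb1 stood at percentile 80.0, Ccnb2 at 17.7 and Ccnb3 at 10.1. Low denominators thus enter these ratios along with a high numerator. The share of all gene pairs that separate the ages in this way was not determined. In input the same ratios overlapped, at 1.64 and 4.03 (old) against 2.39 and 3.49 (young) for Ccnb2 and 2.86 and 2.95 (old) against 3.26 and 1.80 (young) for Ccnb3. Against Ccna2 the HA ratio was 3.69 and 2.64 in old and 2.01 and 2.04 in young pools, but the input ratio, 1.83 and 1.36 against 1.17 and 1.05, separated the ages as well.

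**Figure D2:**
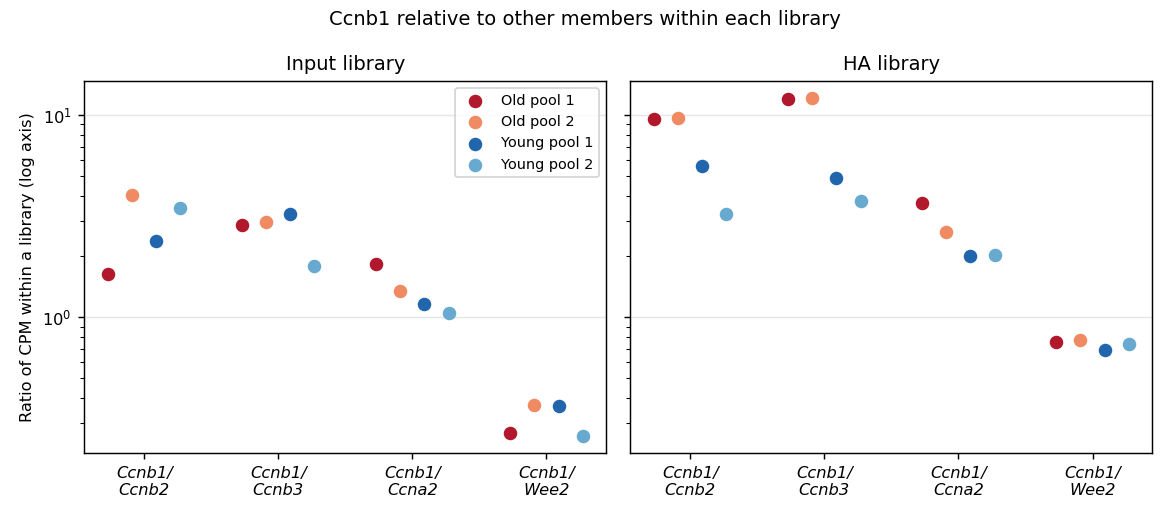
CPM of Ccnb1 divided by that of Ccnb2, Ccnb3, Ccna2 or Wee2 in the same library (log axis), with 1 point for each pool, in input (left) and HA (right). In HA the old pools lie above the young pools for Ccnb2 and Ccnb3, and the ratio to Wee2 stays between 0.685 and 0.774 in all 4 pools.

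The ratio of Ccnb1 to Wee2, mRNAs of opposite effect on CDK1, spanned a narrow range in HA, 0.756 and 0.774 in old and 0.685 and 0.740 in young pools, with both old pools slightly higher. Their ratio in input was 0.267 and 0.368 in old and 0.365 and 0.257 in young pools, with overlap. The ratio of TE values of Ccnb1 and Wee2 overlapped too, at 2.84 and 2.11 in old and 1.88 and 2.87 in young pools. Altogether 6 pairs of genes were compared in this way, and the ratios are described without a test. The pair Wee2 over Cdc25a, overlapped in HA, at 5.01 and 22.0 in old and 6.74 and 11.3 in young pools.

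Wee2 encodes the oocyte-specific inhibitory kinase that is known to act at meiotic arrest and again at the exit from MII. It was the most abundant mRNA of the group, with input at 1161 and 939.6 CPM in old and 856.7 and 997.6 CPM in young pools, which overlapped. In HA it reached 1206 and 1543 CPM in old pools and 685.7 and 737.1 CPM in young pools, with means of 1374 ± 238.0 and 711.4 ± 36.3 CPM (SD, n = 2 each) and a ratio of 1.93. The limma HA difference was 0.94 log2 (SE 0.35, 95% interval 0.09 to 1.78, adjusted p = 0.313). It stood at the 75.3rd percentile of the abundant genes, and was 0.30 with libraries brought to the same sum (adjusted p = 0.720) and 0.18 with quantile normalization (adjusted p = 0.904).

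The TE of Wee2 was 1.04 and 1.64 in old pools and 0.800 and 0.739 in young pools, so that the old pools lay above 1 and the young pools below 1. The TE difference was 0.76 log2 (SE 0.40, 95% interval -0.19 to 1.71, adjusted p = 0.746). It was 0.31 with libraries brought to the same sum, 0.15 with quantile normalization and 0.43 without old pool 2, and over all alternatives the adjusted p ran from 0.139 to 0.9998. Because HA and input were scaled in separate tables, a TE of 1 marks equal CPM, not equal molecules.

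Pkmyt1 encodes the membrane-bound inhibitory kinase. Its input was 16.3 and 18.3 CPM in old pools and 22.9 and 20.5 CPM in young pools, lower in both old pools, but the difference of -0.31 log2 was small beside its error (SE 0.71, adjusted p = 0.979). In HA it had 863 and 4 reads in the old pools and 1377 and 7 reads in the young pools, or 20.5, 0.148, 17.8 and 0.123 CPM. The pools of 1 age thus stood 139-fold (old) and 144-fold (young) apart, and the HA interval ran from -4.64 to 4.87 log2, so no age difference below that size was detectable. Pkmyt1 overlaps Paqr4 on the opposite strand.

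Cdk1 encodes the kinase itself. Its input was 11.8 and 11.1 CPM in old pools and 12.0 and 5.28 CPM in young pools (641, 555, 828 and 201 reads), with overlap. In HA it had 36 and 12 reads in old pools and 707 and 1174 reads in young pools, or 0.855 and 0.444 CPM against 9.14 and 20.7 CPM, a ratio of young to old means of 23.0. The old values lay above the floor of 3 reads but far below both young values. Both old values were under 1 CPM. Cdk1 thus met the filter (at least 1 CPM in at least 2 libraries) through its young pools alone. Genes without reads made up 2.89% and 4.11% of HA genes in the old pools and 0.112% and 0.865% in the young pools. The study also reports more noise in its old HA data. Whether either bears on Cdk1 was not tested. The limma difference was -3.18 on log2(CPM + 1) (SE 1.26, 95% interval -6.18 to -0.18, adjusted p = 0.325), a scale that understates changes of low genes. On the recovered reads, DESeq2 gave -4.35 log2 with an adjusted p of 0.0585. EdgeR gave an adjusted p of 0.158 by the likelihood ratio test and 0.393 by the quasi-likelihood test.

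The TE of Cdk1 was 0.0726 and 0.0398 in old pools and 0.760 and 3.92 in young pools, with a difference of -3.64 log2 (SE 1.52, 95% interval -7.20 to -0.09, adjusted p = 0.739). Over the alternatives this difference ran from -4.92 to -2.07, the smallest with a pseudocount of 5 CPM. The young pools differed from each other in both input and HA, in opposite directions. Cdk1 met the filter through its young pools alone, which limits what its rank can show. Among the 3417 genes with a mean input below 20 CPM, Cdk1 stood at the 3.69th percentile by HA difference and at the 2.75th by TE difference. In HA, the old pools differed more than 10-fold from each other in 44.8% of these low genes and the young pools in 15.9%, whereas Cdk1 differed 1.93-fold and 2.26-fold.

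**Figure D3:**
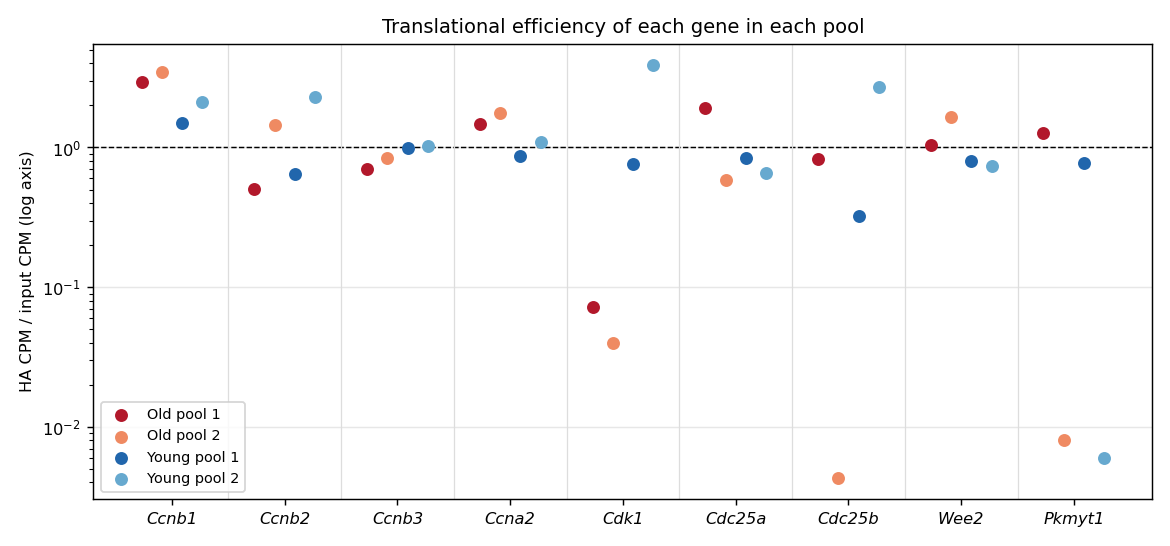
TE (HA CPM divided by input CPM, log axis) of the 9 genes in both tables, with 1 point for each pool and a dashed line at 1. The old pools lie above the young pools for Ccnb1, Ccna2 and Wee2 and below them for Ccnb3 and Cdk1, and single pools drop below 0.01 for Cdc25b and Pkmyt1.

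The CDC25 phosphatases are the activators that oppose WEE2 and PKMYT1, and CDC25B is the one required for meiotic resumption in mouse oocytes. Cdc25a was the most abundant, with input at 124.5 and 120.8 CPM in old and 121.0 and 99.5 CPM in young pools. Its HA level was 240.7 and 70.2 CPM in old and 101.8 and 65.0 CPM in young pools, so that old pool 1 alone was high. The HA difference was 0.67 log2 (SE 0.77, adjusted p = 0.810), and without old pool 1 it was -0.21. TE was 1.93 and 0.581 in old and 0.841 and 0.654 in young pools.

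Cdc25b had input levels of 19.8 and 17.2 CPM in old and 18.1 and 5.86 CPM in young pools. In HA it had 695 and 2 reads in old pools and 450 and 905 reads in young pools, so old pool 2 was below the floor of 3 reads and at least 149-fold below old pool 1. Cdc25c had 764 and 2 input reads in old pools and 441 and 51 in young pools, or 14.0, 0.0401, 6.40 and 1.34 CPM. For these low mRNAs the pools of one age stood further apart than the ages.

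By TE, limma gave an adjusted p under 0.05 to 0 of the 9 genes and to 0% of the 8537 genes tested; the other tools gave 0 (edgeR quasi-likelihood), 212 (edgeR likelihood ratio) and 379 (DESeq2) calls, none in the group. By unadjusted p, 0 were higher and 1 was lower (Cdk1), against 2.35% and 4.33% of all genes. Without old pool 1 the number was 3, and without any other single pool it was 0. The ages did not overlap for 3 genes with higher TE in old pools and for 2 with lower TE, against 17.2% and 20.4% of all genes. The median TE difference of the 9 genes was 0.42 log2 (-0.10 over all genes), and their median HA difference was 0.11. Among the 1994 genes with a mean input of at least 100 CPM, both old pools were higher in TE in 30.3% and lower in 11.03%. Of the 6 genes of the group in that class, 3 were higher (Ccnb1, Ccna2 and Wee2) and 1 was lower (Ccnb3) in both old pools, and differences between the cyclins were not tested.

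**Figure D4:**
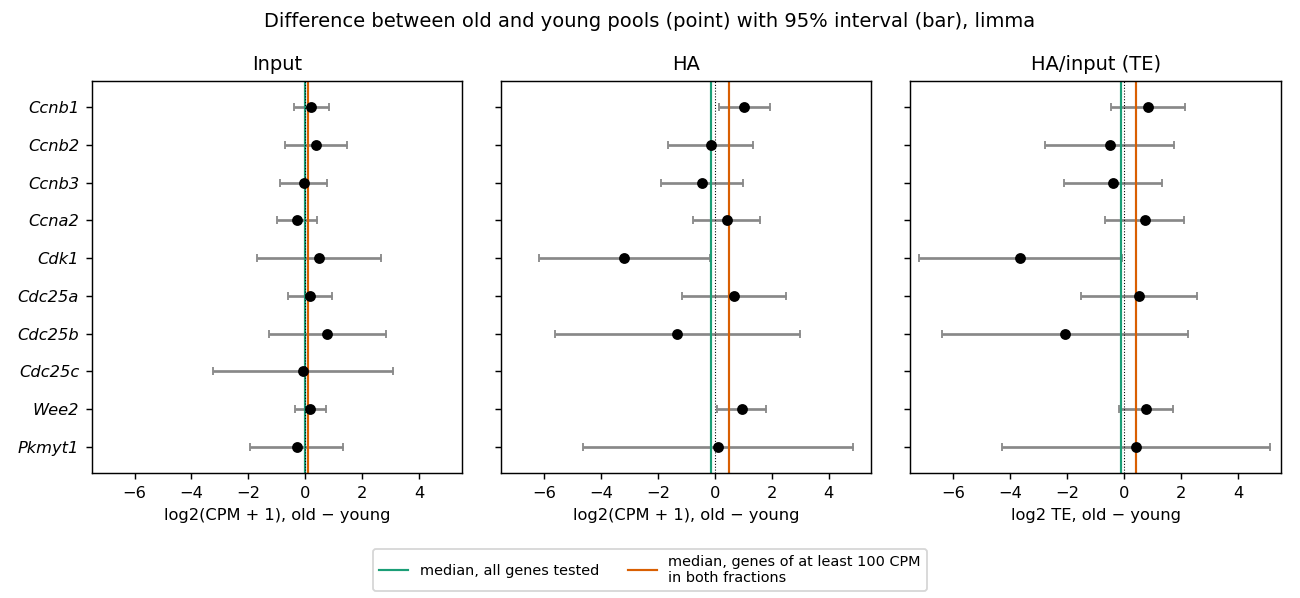
Difference between old and young pools in input, HA and TE for each gene (points, log2) with limma's 95% interval (bars); the green line is the median of all genes tested and the orange line that of the 1590 abundant genes. The HA intervals of Ccnb1, Wee2 and Cdk1 leave out 0, and those of Ccnb1 and Wee2 include the orange line at 0.49.

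Alternative processing bore on the 3 HA differences unequally. Over 15 alternatives Ccnb1 kept a positive HA difference between 0.34 and 1.28 (adjusted p from 0.110 to 0.831) and Wee2 one between 0.18 and 1.17 (adjusted p from 0.127 to 0.904). Over 14 alternatives Cdk1 kept a negative one between -4.51 and -1.76 (adjusted p from 0.0585 to 0.775), and a filter that asked for 10 CPM in 2 or more libraries removed it. For Ccnb1 and Wee2 the smallest values came from the scalings that bring whole libraries together, and for Cdk1 from the pseudocount of 5 CPM.

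**Figure D5:**
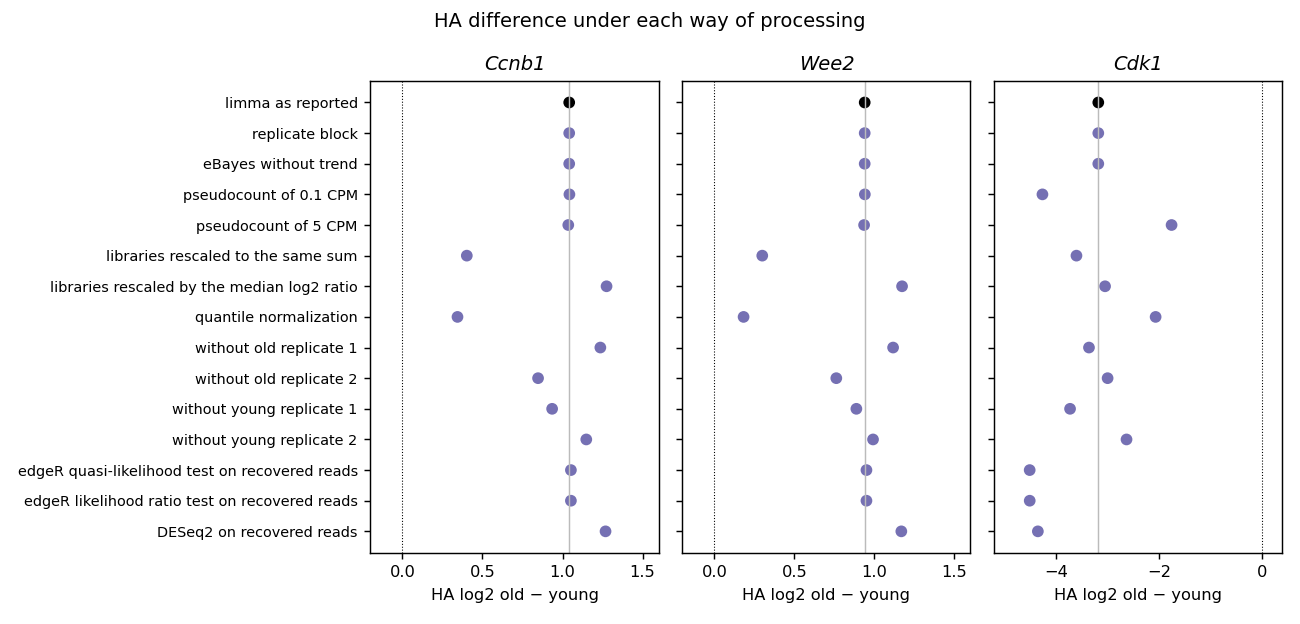
HA difference between old and young pools (log2) of Ccnb1, Wee2 and Cdk1 as reported (black) and under the 14 other ways of processing that gave a value for all 3 genes (purple, without the filter at 10 CPM), with a dotted line at 0 and a grey line at the reported value. All points of Ccnb1 and Wee2 lie above 0, the lowest at 0.34 and 0.18, and all of Cdk1 lie below 0.

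The other genes of the cell cycle network were counted by role: 37 were listed, 29 were in the input table and 24 in the HA table and in both. None passed the adjusted threshold in input, HA or TE by limma. By unadjusted p, 1 was lower in input and none higher, 7 were lower in HA and none higher, and 4 were lower in TE and none higher. Over all genes the shares lower in old pools by unadjusted p were 3.48% in input, 10.5% in HA and 4.33% in TE. The ages did not overlap in HA for 9 genes, all lower in old pools, against 24.7% of all HA genes and 34.7% of genes with a mean input below 20 CPM. Most of these 9, Ccnf and Ppp1ca among them, were under 1 CPM in both old HA pools. They met the filter (at least 1 CPM in at least 2 libraries) through the young pools alone. Most of the 7 genes lower in HA by unadjusted p were among them, so the counts by direction carry this limit. Of the 24 network genes in both tables, 12 were below 20 CPM, and 8 of the 9 were among these 12. Their median HA difference was -0.01 log2 and their median TE difference -0.21.

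Among cyclins and CDKs outside the group (10 of 16 in both tables, median TE difference -0.68), the extremes by TE were Ccnf and Ccnh. Ccnf, which encodes the F-box protein cyclin F, had 6 and 1 HA reads in old pools and 892 and 1032 in young pools, while its input was 12.1 and 61.7 CPM in old and 15.8 and 16.6 CPM in young pools. Its TE difference was -4.57 log2 (SE 1.42, adjusted p = 0.725), a fitted value that depends on the pseudocount. Ccnh, the cyclin of the CDK-activating kinase, had the highest value, 1.74 (SE 1.78), with 1072 and 6 HA reads in the old pools against 503 and 94 in the young pools.

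Of the 5 CDK inhibitors, only Cdkn1b (p27) and Cdkn1c (p57) were in both tables. Their TE differences were 0.58 (SE 2.11) and 0.14 log2 (SE 1.48). Cdkn1b had 2809 and 2 HA reads in old pools and 188 and 180 in young pools. For Cdkn1c, each old pool gave 1 HA read, whereas the young pools gave 87 and 75. Without a pseudocount its TE was lower in both old pools (0.0562 and 0.0160) than in the young pools (0.0906 and 1.36). The sign of its fitted difference thus depends on the pseudocount. Among 16 kinases and phosphatases that act on the switch, 12 were in both tables, with a median TE difference of -0.29. Ppp1ca, a catalytic subunit of protein phosphatase 1, was lowest at -3.80 (SE 1.44, adjusted p = 0.739). It had 2 and 1 HA reads in old pools and 671 and 208 in young pools. Both old pools were below the read floor, so the size of this fitted value, like that of Ccnf, depends on the pseudocount. Arpp19, an inhibitor of PP2A-B55 once phosphorylated by the Greatwall kinase, was highest at 0.52 (SE 0.76), with 155.2 and 467.6 HA CPM in old and 130.8 and 209.5 HA CPM in young pools.

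The genes most like Ccnb1 and Cdk1 over the 8 libraries were sought among 5299 genes with a mean of at least 10 CPM in each fraction, by the distance of log2(CPM + 1) after centring each gene. For Ccnb1 these were C87499 (distance 0.34), Cct8 (0.44) and Daam1 (0.49), against a median distance of 3.27. Of the group, Ccna2 was nearest to Ccnb1 at 1.61, with 581 candidates closer, and Wee2 followed at 1.84, with 813 closer. For Cdk1 they were Rps6ka3 (0.69), Sgol2b (0.99) and Cacul1 (1.02), against a median of 4.38.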

How the data were processed

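RNA-Seq was analysed for 8 libraries of 4 pools of MII oocytes. The authors deposited signal values in CPM, made by trimming (Trimmomatic 0.36, per the labels), HISAT2 alignment to GRCm38 (mm10), HTSeq counting per gene against GENCODE M11 without strand and over the whole gene, removal of low genes and TMM scaling with edgeR, separately for HA and input. Every gene had at least 1 CPM, before TMM scaling, in at least 2 libraries. All per-sample columns were used (0 left out). Each value was within 0.01 reads of a whole number of reads.

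Old and young pools were compared with limma 3.58.1 (R 4.3.3), moderated with an intensity trend, on log2(CPM + 1). Tests were two-sided, p-values were adjusted by Benjamini-Hochberg across each whole table, and the threshold was 0.05. TE was HA over input of the same pool, tested as log2(HA CPM + 1) minus log2(input CPM + 1), and HA and input pair because they share a lysate. Old and young pools share a replicate number only, so they were not paired. EdgeR 4.0.16 and DESeq2 1.42.0 were run on recovered reads, and the tests were checked on simulated data, where the limma TE test called none of the planted differences at any size tried and the HA test few of the smallest. A missing call therefore does not show equal values. Limma's p-values rest on the spread between 2 pools of each age, moderated by a variance trend across all genes.

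The genes and lists were chosen with earlier results of these data known. All 10 genes are named. For Ccnb1 and Cdk1 the 3 most similar genes are named, and of other lists the genes past the threshold or with the highest or lowest TE difference. Levels per kb used exon lengths of GENCODE M21, to which 99.7% (HA) and 99.8% (input) of gene IDs matched. Python 3.11.15 and matplotlib 3.10.9 were used for summaries and plots.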

Additional observations from a re-analysis of the deposited data

Results flagged for a closer look

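Wee2 stood out because its TE lay on opposite sides of 1 in the 2 ages: above 1 in both old pools (mean 1.34 ± 0.427, SD, n = 2) and below 1 in both young pools (mean 0.7697 ± 0.0435, SD, n = 2). Such sides were found in 426 of 8537 genes (4.99%), and the opposite arrangement in 288 (3.37%). The limma test of the TE difference gave an adjusted p of 0.746. The difference in sides itself was not tested, and the side of 1 depends on the separate scaling of the HA and input tables.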

How the results depend on the processing

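No member passed an adjusted p of 0.05 under any alternative in input, HA or TE. Of 426 values of single members under the alternatives, 396 kept their direction and 30 reversed. Scaling moved the median HA difference of all genes by -0.55 (same sum) and 0.19 log2 (median ratio), and that of TE by -0.38 and 0.17.
The count of members with an unadjusted p under 0.05 in HA was 3 and became 1 with the same sum, without the trend, with the likelihood ratio test and with DESeq2, and 0 with quantile normalization; leaving out 1 pool gave 0 to 4. In TE the count was 1 and became 0 with a pseudocount of 5, the filter at 10 CPM (8 members), median ratio, quantile normalization and the replicate block; leaving out 1 pool gave 0 to 3, the 3 without old pool 1.
Reversed with the same sum were the input differences of Cdc25a (-0.0295) and Wee2 (-0.0134) and the HA differences of Ccna2 (-0.22) and Pkmyt1 (-0.18). With quantile normalization Ccna2 in HA was -0.24 and Cdc25c in input 0.30. With median ratio Ccnb2 in HA was 0.10. Cdc25c in input was 0.20 with a pseudocount of 5, 0.86 by both edgeR tests and 0.89 by DESeq2.
Leaving out 1 pool gave ranges through 0 for Ccnb2 (input -0.19 to 0.94, HA -0.63 to 0.37, TE -1.42 to 0.40), Ccnb3 input (-0.34 to 0.23), Cdk1 input (-0.064 to 0.99), Cdc25c input (-2.00 to 1.85), Ccna2 HA (-0.02 to 0.85), Cdc25a (HA -0.21 to 1.55, TE -0.35 to 1.37), Cdc25b HA (-3.32 to 0.70) and Pkmyt1 (HA -2.00 to 2.23, TE -1.77 to 2.62). The causes were not tested.
Same-numbered old and young pools did not deviate together (correlations 0.03 in input, 0.08 in HA, 0.01 in TE), so the numbers do not pair them. The replicate block left the HA differences of Ccnb1 and Wee2 at adjusted p = 0.244 and gave no member an adjusted p under 0.05.
Cdc25b, Cdc25c, Cdk1 and Pkmyt1 had at most 12 reads in at least 1 library, so their values there are the least precise; why these reads were few was not tested.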
